A study of Mus musculus with 4 samples.

Results

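Heat shock proteins and other molecular chaperones were examined in mouse colon tumours, together with the genes of endoplasmic reticulum (ER) stress. Members were chosen by gene symbol, with earlier results of these data known. They were the Hsp genes, the Dnaja, Dnajb and Dnajc genes of J-domain co-chaperones, the Cct genes and Tcp1 of the chaperonin TRiC, the Bag co-chaperones, the isomerases Pdia4, Pdia5 and Pdia6, and 11 further genes such as Hsf1, Canx, Xbp1 and Atf4. This gave 94 of the 14979 genes in the table, and all 94 had enough tags to be tested, as did 14331 genes in all. From textbook knowledge of where their proteins work, 52 were placed in the cytosol or nucleus, 25 in the ER or its stress response and 8 in mitochondria. The other 9 were left unplaced, among them Hspg2, which shares the letters but encodes the matrix proteoglycan perlecan.

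All 4 libraries came from tumours of the AOM/DSS model, in which azoxymethane acts as the carcinogen and dextran sulfate sodium inflames the colon. Tumours of 2 mice that received an antibody against MAdCAM-1, the gut vessel molecule that lymphocytes bind through an integrin, gave the libraries MAdCAM1 1 and MAdCAM1 2. Tumours of 2 mice given IgG antibody as control gave IgG 1 and IgG 2. Strain, age, sex and antibody dose are not given in the labels. Cap analysis of gene expression (CAGE) counted tags from capped 5′ ends, so that a level does not scale with transcript length. Libraries held 14850923 to 16891234 tags. Levels are CPM, tag counts relative to library size and scaled by TMM, and fold changes are MAdCAM1 over IgG on the log2 scale from edgeR. Whole tumours were used, so fewer cells of a type and less RNA per cell cannot be told apart.

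Chaperones bind unfolded proteins and, mostly by cycles of ATP hydrolysis, help them to fold, to cross membranes or to be degraded. Heat and other proteotoxic stress release the transcription factor Hsf1, which binds heat shock elements and induces the cytosolic set. Misfolded protein in the ER activates the sensors Ern1, Ern2 and Atf6 and the kinase that acts through Atf4, a response named the unfolded protein response. Secretory cells of the colon such as goblet cells depend on the ER set, and tumours in general on the cytosolic set.

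Marker genes of several cell types differed between the libraries, some along with the antibody and some not. The epithelial markers, summed, stood at 10560 and 9106 CPM in MAdCAM1 libraries and at 6716 and 5998 CPM in IgG libraries, and goblet cell markers at 10391 and 7307 CPM against 2757 and 1174 CPM. Colonocyte markers summed to 1077 and 664 CPM in MAdCAM1 libraries and to 361 and 211 CPM in IgG libraries. Of these lists 6 of 7 epithelial, 8 of 11 goblet and 5 of 6 colonocyte markers were higher in both MAdCAM1 libraries, and 0 were lower in both. Smooth muscle markers were high in MAdCAM1 2 and IgG 1 (2030 and 1809 CPM) and low in MAdCAM1 1 and IgG 2 (141 and 143 CPM). Leukocyte markers summed to 337 and 1291 CPM in MAdCAM1 libraries and to 452 and 1008 CPM in IgG libraries. The 5 tested plasma cell markers summed to 355 and 780 CPM against 413 and 347 CPM, sums that hold much Sdc1, which epithelium also makes (301 and 245 CPM against 381 and 285 CPM). Of the 5 plasma cell markers, 2 were higher in both MAdCAM1 libraries (40%), where 19.7% of all tested genes were, and 3 overlapped. The 2 were the antibody secretion genes Jchain and Mzb1. Jchain stood at 42.7 and 449.6 CPM against 8.14 and 35.4 CPM, and Mzb1 at 1.33 and 8.74 CPM against 0.285 and 0.433 CPM. Prdm1 tended the other way, at 9.17 and 15.7 CPM against 14.5 and 23.3 CPM. Cd79a stood at 1.12 and 60.3 CPM against 8.76 and 2.23 CPM. Every tested marker had tags in all 4 libraries. Their part in the results below was not tested.

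Cytosolic chaperone genes tended to lower levels in tumours of anti-MAdCAM-1 mice, by small amounts and with no gene past the test, and ER genes did not. Of the 52 cytosolic members 39 had a log2 fold change below 0, and of the 25 ER members 18 had one above 0. Of 52 cytosolic members, 21 had both MAdCAM1 libraries below both IgG libraries (lower in both), where 18.7% of all tested genes were, and 2 were higher in both, where 19.7% of all tested genes were. Of 25 ER members, 2 were lower in both and 4 were higher in both. The median log2 fold change was −0.16 for cytosolic members, 0.10 for ER members, 0.02 for mitochondrial members and 0.00 for all tested genes. Scaling by library size alone moved the median of all genes to −0.10. It gave 24 cytosolic members lower in both and 0 higher, and 6 ER members lower in both and 1 higher, where 28.6% of all genes were lower and 13.6% higher. Scaling by RLE size factors gave 20 cytosolic members lower in both and 2 higher, and 2 ER members lower and 1 higher. Of all genes 19.0% were then lower and 19.5% higher. By the quasi-likelihood test of edgeR 0 members passed (Benjamini-Hochberg adjusted p over all genes between 0.691 and 0.999), where 0% of all genes passed. Without adjustment, 0 members were higher and 3 lower at a p under 0.05 (Hspa2, Dnajc18 and Hspb8), where 5.09% of all genes were higher and 1.82% lower. edgeR's exact test and DESeq2 also called 0 members, where they called 1.12% and 1.67% of all genes, and limma-voom called 0 members and 0% of all genes.

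**Figure D1:**
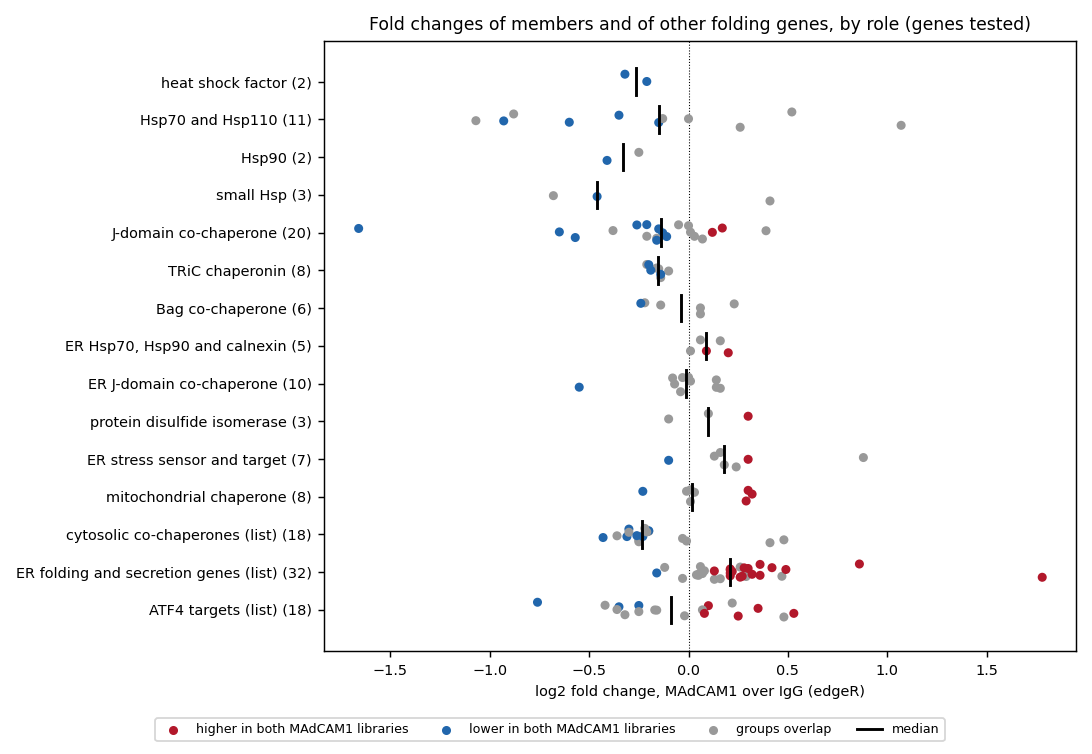
Log2 fold change (MAdCAM1 over IgG, edgeR, horizontal axis) of each member by role, and of the genes of 3 further lists, with the number of genes in brackets. Colour shows whether both MAdCAM1 libraries stood above or below both IgG libraries, and the bar is the median. The 8 TRiC genes lie between −0.21 and −0.10, and genes of ER folding and secretion lie mostly to the right of 0.

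The level of a single library weighed on the cytosolic result. Of the 52 cytosolic members 28 were highest in IgG 2 (53.8%), where 29.3% of all tested genes were, and 12 were highest in IgG 1 (23.1%), where 22.2% of all tested genes were. Without IgG 2 the cytosolic median was −0.10, with 28 members below and 7 above IgG 1 in both MAdCAM1 libraries, where 34.0% and 33.1% of all genes were. Without IgG 1 the median was −0.23. Summed over members, cytosolic chaperones stood at 6713 and 6546 CPM in MAdCAM1 libraries and at 7356 and 8587 CPM in IgG libraries, so that the groups did not overlap.

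ER members summed to 3642 and 4369 CPM in MAdCAM1 libraries, against 3797 and 3625 CPM in IgG libraries, and the groups overlapped. The ratio of ER to cytosolic level was 0.543 and 0.667 in MAdCAM1 libraries and 0.516 and 0.422 in IgG libraries. Its log2 averaged −0.73 in MAdCAM1 libraries and −1.10 in IgG libraries, a difference of 0.37, beside an SD between replicates of 0.208. The difference was 0.22 without MAdCAM1 2 and also 0.22 without IgG 2. MAdCAM1 1 and IgG 1 were close to each other, and MAdCAM1 2 and IgG 2 formed the ends of the range. No p is given, as the members were put together with earlier results known.

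**Figure D2:**
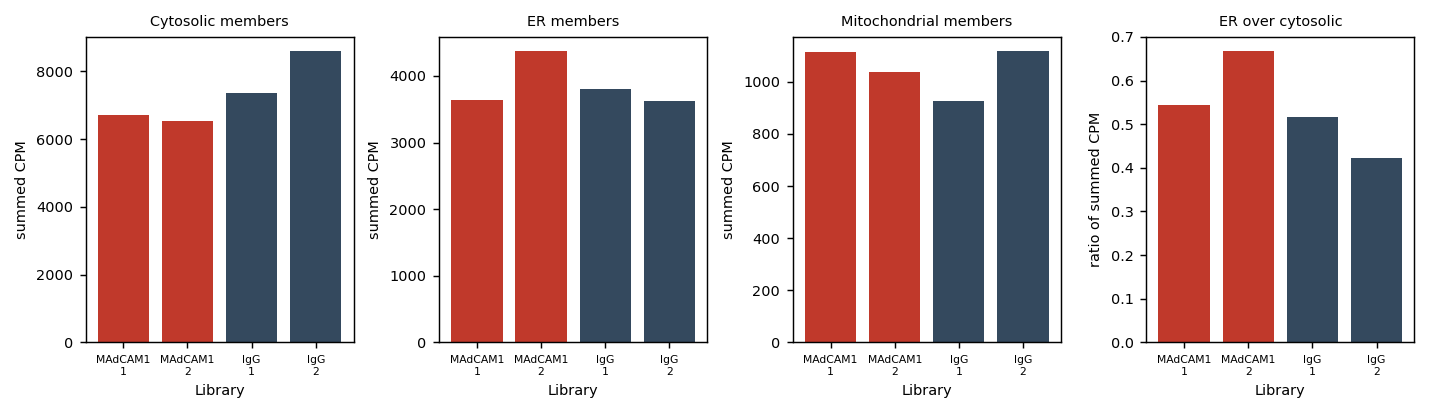
Summed CPM of cytosolic, ER and mitochondrial members in each library, and the ratio of ER to cytosolic level. Bars start at 0, red bars are MAdCAM1 and dark bars IgG. The ratio runs from 0.422 in IgG 2 to 0.667 in MAdCAM1 2.

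Hsp90ab1 and Hspa8, the constitutive Hsp90 and Hsp70 of the cytosol, were the most abundant members and made up 37.2% to 42.2% of the cytosolic sum. Hsp90ab1 (chromosome 17, 45878552 to 45891949, GRCm39) had 1474 and 1400 CPM in MAdCAM1 libraries, against 1715 and 2107 CPM in IgG libraries. Its log2 fold change was −0.41 (SE 0.17, n = 2 per group), and it did not pass the edgeR test (adjusted p = 0.741). Hspa8 (chromosome 9, 40711630 to 40731039) stood at 1024 and 1108 CPM against 1211 and 1513 CPM, a log2 fold change of −0.35 (SE 0.18; edgeR adjusted p = 0.763). In both genes the 2 groups did not overlap and IgG 2 was highest. Hsp90aa1, the inducible Hsp90, overlapped at 63.5 and 50.8 CPM in MAdCAM1 libraries and 51.4 and 84.5 CPM in IgG libraries, and its log2 fold change of −0.25 turned to 0.14 without IgG 2.

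Dnaja1, Hsph1 and Dnaja4, which belong to the co-chaperones of these proteins, were also highest in IgG 2. In all, 8 of 20 J-domain genes (40%) and 3 of 6 Bag genes (50%) were, beside 29.3% of all tested genes. Dnaja1, a J-domain partner of Hspa8, stood at 284 and 236 CPM in MAdCAM1 libraries and at 294 and 480 CPM in IgG libraries (log2 fold change −0.57, SE 0.29). Hsph1, the Hsp110 that exchanges nucleotide on Hsp70, stood at 43.9 and 41.7 CPM against 48.7 and 80.8 CPM, with a log2 fold change of −0.60 (SE 0.28). IgG 2 was well above the other libraries in both genes, while IgG 1 lay just above MAdCAM1. Dnaja4, a relative of Dnaja1, was the extreme case at 32.5 and 23.4 CPM in MAdCAM1 libraries and 32.6 and 144 CPM in IgG libraries. Its log2 fold change of −1.66 (SE 0.76) was the lowest of all members, and it was −0.23 without IgG 2. The 3 genes had edgeR adjusted p of 0.763, 0.760 and 0.760, in the order Dnaja1, Hsph1, Dnaja4.

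Further co-chaperones of Hsp90 and Hsp70, outside the members, were counted in the same way. Their list was also chosen with earlier results of these data known. Of 18 listed genes 6 were lower in both (33.3%) and 0 higher in both, where 18.7% and 19.7% of all tested genes were, and 13 were highest in IgG 2 (72.2%), where 29.3% of all tested genes were. Their median log2 fold change was −0.24, and −0.01 without IgG 2. Cdc37, which brings kinases to Hsp90, stood at 113 and 124 CPM in MAdCAM1 libraries and at 159.6 and 157 CPM in IgG libraries, with both IgG libraries alike (log2 fold change −0.43, SE 0.14; edgeR adjusted p = 0.691). Ahsa1, the activator of the Hsp90 ATPase, stood at 121 and 122 CPM against 132 and 167 CPM. Ptges3, the Hsp90 co-chaperone p23, overlapped at 266 and 251 CPM against 253 and 269 CPM. Fkbp4, a steroid receptor co-chaperone, overlapped at 246 and 204 CPM in MAdCAM1 libraries and 192 and 340.3 CPM in IgG libraries.

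The chaperonin TRiC is a double ring of subunits, each from its own gene, that folds actin and tubulin, and its 8 genes had similar values. All 8 had a log2 fold change below 0 (−0.21 to −0.10). All 8 were highest in IgG 2, where 29.3% of all tested genes were. Only 3 were lower in both MAdCAM1 libraries (37.5%), where 18.7% of all tested genes were. Tcp1 stood at 321 and 298 CPM in MAdCAM1 libraries, against 327 and 380.0 CPM in IgG libraries. Cct8 stood at 205 and 216 CPM against 229.6 and 254 CPM, and Cct7 at 126 and 118 CPM against 132 and 138 CPM. These 3 genes did not overlap between the groups. Cct5 overlapped, at 238 and 245 CPM in MAdCAM1 libraries and 232 and 328 CPM in IgG libraries, and Cct2 did so at 276 and 229 CPM against 242 and 301 CPM. The TRiC median of −0.15 was 0.01 without IgG 2 and −0.30 without IgG 1.

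**Figure D3:**
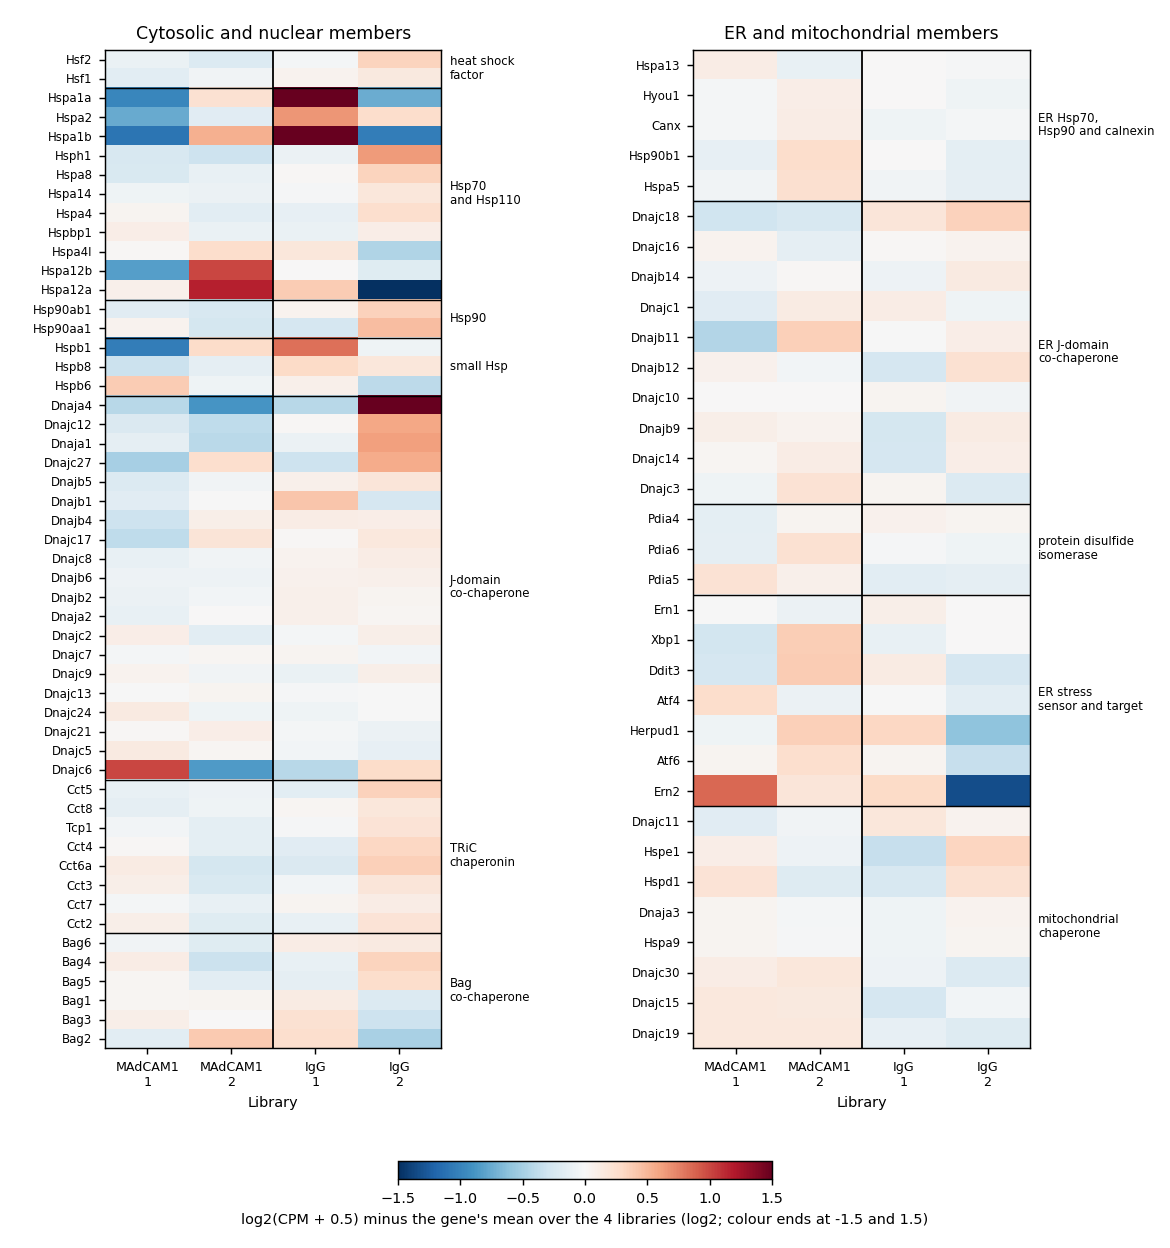
Level of 85 placed members in each library, as log2(CPM + 0.5) minus the gene's own mean over the 4 libraries, in rows by role. Red is above the gene's mean and blue below. The TRiC block is red in the IgG 2 column, and Hspa1a and Hspa1b stand out in the IgG 1 column.

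The heat shock factors were low in level and below the IgG libraries in both MAdCAM1 libraries. Hsf1, the main activator of the heat shock response, stood at 20.4 and 22.1 CPM in MAdCAM1 libraries, against 23.7 and 25.4 CPM in IgG libraries (log2 fold change −0.21, SE 0.17; edgeR adjusted p = 0.849). Hsf2 stood at 14.7 and 13.5 CPM against 15.4 and 19.9 CPM, with a log2 fold change of −0.32 (SE 0.22; edgeR adjusted p = 0.831).

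Another 4 genes known to be induced by stress, put together after their values were seen, were highest in IgG 1. The inducible Hsp90aa1 was highest in IgG 2 instead, as were Hsph1, Dnaja1, Dnaja4, Hspe1 and Hspd1. Hspa1b (chromosome 17, 35175412 to 35178214), an Hsp70 made on heat shock, stood at 14.6 and 46.2 CPM in MAdCAM1 libraries and at 96.5 and 15.2 CPM in IgG libraries. Its neighbour Hspa1a (35188166 to 35191132) stood at 4.13 and 10.2 CPM against 25.2 and 4.95 CPM. In both genes the libraries ran IgG 1, MAdCAM1 2, IgG 2, MAdCAM1 1 from high to low, and the groups overlapped. The log2 fold changes of −0.88 (SE 1.05) and −1.07 (SE 0.92) turned to 1.0 and 0.52 without IgG 1. Hspb1, the small heat shock protein Hsp25, stood at 23.0 and 57.8 CPM in MAdCAM1 libraries and at 84.3 and 45.3 CPM in IgG libraries. Dnajb1, the inducible J-domain partner of Hspa1a, stood at 59.0 and 65.8 CPM against 88.7 and 55.5 CPM. IgG 1 and MAdCAM1 2, the top libraries for Hspa1b, Hspa1a, Hspb1 and Dnajb1, were also those with high smooth muscle markers. Of the tested immediate-early genes 6 of 6 were highest in IgG 1, where 22.2% of all tested genes were. Their sum was lowest in MAdCAM1 2, at 698 and 531 CPM in MAdCAM1 libraries and 956 and 642 CPM in IgG libraries. Whether these go together was not tested. The mRNAs of Hspa1a and Hspa1b are nearly identical, so tags may be split between them in a way the table does not show.

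**Figure D4:**
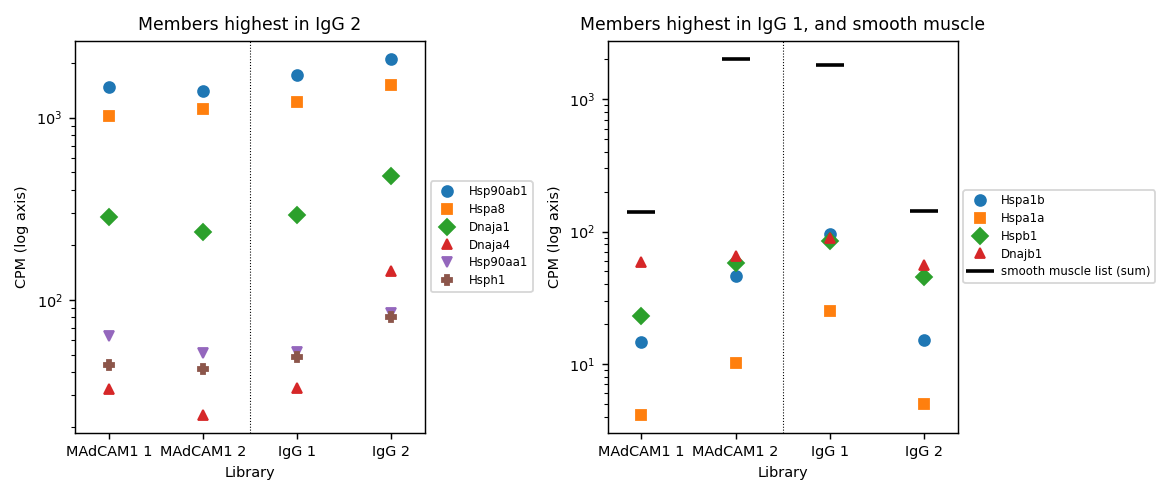
CPM (log axis) of members in each library, chosen after their values were seen. On the left are 6 members highest in IgG 2, such as Dnaja4 at 144 CPM there. On the right are 4 members highest in IgG 1, with the summed smooth muscle markers as black bars, which are high in MAdCAM1 2 and IgG 1.

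The promoters of Hspa1a, Hspa1b and Hspb1 are shown because they hold a match to the heat shock element, for which Dnajb1 had 0 matches. All sequences were read from GRCm39 upstream of the start of the GENCODE canonical transcript, on the strand of the gene. The 120 bases before each start are given for 3 genes, with capitals at each match to the heat shock element, searched as GAANNTTC or TTCNNGAA, which read alike on both strands.
Hspa1a, chr17:35191133-35191252, minus strand: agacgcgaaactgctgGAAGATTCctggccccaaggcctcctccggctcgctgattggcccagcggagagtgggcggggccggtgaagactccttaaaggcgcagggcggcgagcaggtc
Hspa1b, chr17:35178215-35178334, minus strand: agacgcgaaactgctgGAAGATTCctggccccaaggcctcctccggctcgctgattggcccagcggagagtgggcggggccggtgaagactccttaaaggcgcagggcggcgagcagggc
Hspb1, chr5:135916640-135916759, plus strand: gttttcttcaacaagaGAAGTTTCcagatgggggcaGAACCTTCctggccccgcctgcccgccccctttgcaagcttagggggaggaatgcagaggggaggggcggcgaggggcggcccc
The match begins 104 bases before the start in Hspa1a and in Hspa1b, and Hspb1 has matches at 104 and 84 bases. Over the 250 bases before the start, the windows of Hspa1a and Hspa1b had 98.8% of their bases in common.

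Matches to the heat shock element were also found in some members highest in IgG 2. Those of Hsph1, Dnaja1 and Hspe1 are given as 30 bases around the match.
Hsph1, chr5:149559816-149559845, minus strand: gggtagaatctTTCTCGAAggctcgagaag
Dnaja1, chr4:40722333-40722362, plus strand: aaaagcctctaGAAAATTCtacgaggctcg
Hspe1, chr1:55127212-55127241, plus strand: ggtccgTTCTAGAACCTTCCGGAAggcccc
In Hspe1 the capitals hold 3 overlapping matches. Each of these windows lies wholly inside annotated exons. Hsp90ab1, Hspa8, Hsp90aa1 and Dnaja4, also highest in IgG 2, had 0 matches. Cytosolic members with a match that is not shown were Cct5, Dnajc27 and Dnajc6. Within 250 bases before the start, 8 of 52 cytosolic members (15.4%) and 1 of 25 ER members held a match, where 11% of 14287 promoters did. Of the 21 cytosolic members lower in both MAdCAM1 libraries, 2 held one. A match is a description of letters and does not show binding, and the search allows no mismatch.

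Other Hsp70 genes and small heat shock proteins had mixed values. Hspa2, best known as an Hsp70 of the testis, stood at 12.5 and 19.0 CPM in MAdCAM1 libraries, against 34.3 and 25.7 CPM in IgG libraries. The smallest p of all members was that of Hspa2 (unadjusted 0.0315, edgeR adjusted p = 0.691), at a log2 fold change of −0.93 (SE 0.30). Hspb8, a small heat shock protein that works with Bag3, stood at 27.4 and 31.2 CPM against 42.0 and 38.7 CPM, with a log2 fold change of −0.46 (SE 0.16; edgeR adjusted p = 0.715). In Hspa2 and Hspb8 both IgG libraries stood above both MAdCAM1 libraries, and IgG 1 was highest. Hspb6, a small heat shock protein of muscle, rested on 34 and 25 tags in MAdCAM1 libraries and 32 and 19 tags in IgG libraries, and it shares its counts with an overlapping gene model. Hspa14, which acts on ribosomes, stood at 64.7 and 63.6 CPM against 66.9 and 75.9 CPM and also shares its counts with another model. Hspa4, an Hsp110 relative, overlapped at 185 and 162 CPM in MAdCAM1 libraries and 166 and 215 CPM in IgG libraries.

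Several Bag proteins release substrates from Hsp70. Bag6, which sorts membrane proteins between insertion and degradation, was the only Bag gene without overlap, at 157 and 144 CPM in MAdCAM1 libraries and 177 and 179 CPM in IgG libraries (log2 fold change −0.24, SE 0.14; edgeR adjusted p = 0.786). Bag1 overlapped at 391 and 394 CPM against 418 and 333 CPM, and Bag3 at 41.5 and 39.2 CPM against 45.9 and 31.4 CPM. Bag4 stood at 29.5 and 21.8 CPM against 25.2 and 34.4 CPM, and Bag5 at 35.7 and 31.3 CPM against 31.8 and 42.1 CPM, both highest in IgG 2. Over the 6 Bag genes the median log2 fold change was −0.04.

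Among 20 cytosolic and nuclear J-domain genes, 9 were lower in both MAdCAM1 libraries (45%) and 2 higher (10%), where 18.7% and 19.7% of all tested genes were. Dnajc12, a co-chaperone of aromatic amino acid hydroxylases, stood at 10.99 and 9.78 CPM in MAdCAM1 libraries, against 13.1 and 19.5 CPM in IgG libraries (log2 fold change −0.65, SE 0.28; edgeR adjusted p = 0.745). Dnaja2 stood at 199 and 215 CPM against 227 and 219 CPM, and Dnajc8, a protein of the spliceosome, at 123 and 127 CPM against 136 and 143 CPM. Their log2 fold changes of −0.11 (SE 0.14) and −0.16 (SE 0.13) were about the size of their errors. Dnajc5, the cysteine string protein, and Dnajc21 were the pair that was higher in both, at log2 fold changes of 0.17 and 0.12. The least abundant gene, Dnajc27, had 7 and 18 tags in MAdCAM1 libraries and 11 and 25 in IgG libraries.

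In the ER, 2 of 5 major chaperones were higher in both MAdCAM1 libraries (40%), by narrow margins, where 19.7% of all tested genes were. Scaled by RLE size factors, 0 of the 5 were higher in both. Hspa5 (BiP; chromosome 2, 34661982 to 34668880), the Hsp70 of the ER and a standard readout of ER stress, stood at 375 and 459.5 CPM in MAdCAM1 libraries and at 374 and 354 CPM in IgG libraries. Its groups did not overlap by a margin of about 1 CPM, and its log2 fold change was 0.20 (SE 0.17; edgeR adjusted p = 0.863). Canx, the lectin calnexin that holds glycoproteins, stood at 610.3 and 673 CPM against 595 and 609.8 CPM, with a log2 fold change of 0.09 (SE 0.15). For both genes MAdCAM1 1 lay within a few CPM of an IgG library. The groups overlapped for Hsp90b1, the Hsp90 of the ER, at 807 and 1057 CPM in MAdCAM1 libraries and 879 and 789.8 CPM in IgG libraries. Hyou1, the nucleotide exchange partner of Hspa5, overlapped too, at 146 and 160 CPM against 149.6 and 143 CPM.

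MAdCAM1 2 was the highest library for 13 of 25 ER members (52.0%), where it was for 24.2% of all tested genes. Dnajb11, a J-domain partner of Hspa5, stood at 99.9 and 174 CPM in MAdCAM1 libraries and at 135 and 145 CPM in IgG libraries, so that the 2 MAdCAM1 libraries formed both ends. Pdia6 stood at 163 and 210.2 CPM against 178 and 172 CPM, and Dnajc3 at 165 and 201 CPM against 178 and 149.8 CPM. The ER median of 0.10 was 0.01 without MAdCAM1 2, 0.04 without IgG 2 and 0.16 without MAdCAM1 1. MAdCAM1 2 also had the highest sum of plasma cell markers, and 3 of the 5 tested were highest there (60%). Sdc1 was highest in IgG 1 and Prdm1 in IgG 2. Summed leukocyte, smooth muscle, and endothelial and fibroblast markers were also highest in MAdCAM1 2, at 1291, 2030 and 970 CPM. The part of plasma cells and of these other cell types was not tested.

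The remaining ER members included the clearest exceptions. Pdia5, an isomerase that helps to activate Atf6, stood at 56.1 and 50.9 CPM in MAdCAM1 libraries, against 43.2 and 44.0 CPM in IgG libraries (log2 fold change 0.30, SE 0.14; edgeR adjusted p = 0.760). Pdia4 overlapped at 308 and 352.2 CPM against 357 and 352.2 CPM. Dnajc18, a J-domain protein of the ER membrane, was lower in both MAdCAM1 libraries, at 12.5 and 13.1 CPM against 17.6 and 19.8 CPM, with a log2 fold change of −0.55 (SE 0.19; edgeR adjusted p = 0.712). Dnajc10, which reduces disulfides for degradation, overlapped at 116 and 116 CPM in MAdCAM1 libraries and 118 and 111 CPM in IgG libraries. Dnajc14, a J-domain protein of the ER membrane, overlapped at 49.4 and 52.6 CPM against 40.6 and 52.1 CPM. Dnajb9, a target of Xbp1, overlapped at 68.3 and 66.9 CPM against 53.4 and 69.7 CPM.

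Promoters of ER members are shown because they hold the ER stress element, bound by Atf6 together with the factor NF-Y. It was searched on both strands as CCAAT and CCACG with any 9 bases between them, with ATTGG and CCACG 1 base apart as its second form, and capitals mark the match within 30 bases.
Hspa5, chr2:34662032-34662061, plus strand: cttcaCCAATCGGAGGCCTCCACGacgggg
Hsp90b1, chr10:86541496-86541525, minus strand: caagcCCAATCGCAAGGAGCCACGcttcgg
Hsp90b1, chr10:86541391-86541420, minus strand: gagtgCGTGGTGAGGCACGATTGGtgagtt
Canx, chr11:50216621-50216650, minus strand: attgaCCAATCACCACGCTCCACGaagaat
Dnajc3, chr14:119175234-119175263, plus strand: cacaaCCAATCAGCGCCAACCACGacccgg
Pdia6, chr12:17316487-17316516, plus strand: agagaCCAATGAAAGGCGGCCACGgcgtgg
Hyou1, chr9:44290652-44290681, plus strand: gaaccgtgaCGTGGCCCAATccgcagccag
Hyou1, chr9:44290743-44290772, plus strand: cagaggggcgggtcttctaCGTGGACCAAT
Herpud1, chr8:95112996-95113025, plus strand: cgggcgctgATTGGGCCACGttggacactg
Some of these windows lie inside annotated exons, counted for any gene on either strand. Those of Canx and the first of Hsp90b1 do so outside the span of the gene itself. The first form was in 5 of 25 ER members (20%) and 0 of 52 cytosolic members, where 17 of 14287 promoters (0.119%) held it, and the second form in 2 ER members and 0 cytosolic members, where 10 promoters did. The C/EBP-ATF response element of Atf4 targets, TGATGNAA on either strand, was in Ddit3 and Herpud1 among ER members, where 2.27% of promoters held it. The unfolded protein response element, TGACGTGG on either strand, was in 1 ER member, Hyou1, where it overlaps the first ER stress element shown, and in 0.644% of promoters. The 7 genes with an ER stress element of either form ranged in log2 fold change from 0.06 (Hyou1) to 0.24 (Herpud1). None passed the edgeR test, and the groups overlapped for all but Hspa5 and Canx. Leaving out a library turned the sign of Hsp90b1, Herpud1, Pdia6 and Hyou1. Library size scaling turned that of Canx, Hyou1 and Pdia6.

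**Figure D5:**
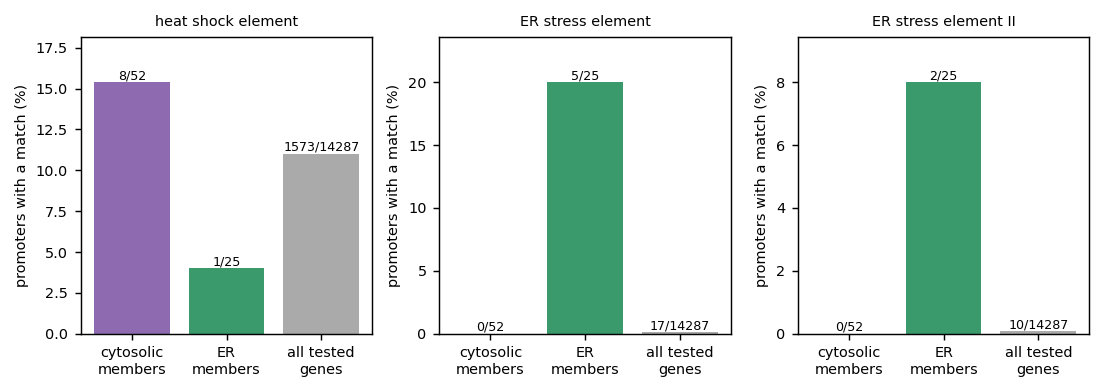
Share of promoters (%, the 250 bases before the start) with an exact match to the heat shock element and to each form of the ER stress element, in cytosolic members, ER members and all tested genes, with counts above the bars. The ER stress element was in 5 of 25 ER promoters and in 0 of 52 cytosolic promoters.

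Of 7 sensors, transcription factors and targets of the unfolded protein response, 5 overlapped between the groups, where 8832 of 14331 tested genes did. Ern1, the sensor that splices Xbp1 mRNA, stood at 36.3 and 34.1 CPM in MAdCAM1 libraries, against 38.8 and 36.5 CPM in IgG libraries (log2 fold change −0.10, SE 0.15). Atf6, the sensor that is cleaved in the Golgi, was higher in both, at 43.0 and 49.9 CPM against 42.8 and 32.7 CPM, with MAdCAM1 1 and IgG 1 nearly equal (log2 fold change 0.30, SE 0.20; edgeR adjusted p = 0.829). Xbp1 overlapped at 217 and 340 CPM in MAdCAM1 libraries and 243 and 264 CPM in IgG libraries. CAGE counts the spliced and unspliced forms of Xbp1 together. Atf4 stood at 55.7 and 43.8 CPM against 46.2 and 41.4 CPM, and its target Ddit3, which promotes cell death, at 9.52 and 15.0 CPM against 12.5 and 9.52 CPM. Herpud1, which takes part in ER-associated degradation, stood at 79.2 and 107 CPM against 103 and 54.5 CPM, so that IgG 2 was the low library.

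Ern2, the sensor of mucus-secreting epithelium, had the largest ER log2 fold change at 0.88 (SE 0.62; edgeR adjusted p = 0.835). It stood at 78.9 and 49.1 CPM in MAdCAM1 libraries and at 52.8 and 16.8 CPM in IgG libraries, with IgG 2 far below the rest and the groups overlapping. Goblet cell markers, 8 of 11 of which were higher in both MAdCAM1 libraries, were likewise lowest in IgG 2 and highest in MAdCAM1 1. Summed epithelial and colonocyte markers were also highest in MAdCAM1 1 (10560 and 1077 CPM) and lowest in IgG 2 (5998 and 211 CPM). The part of goblet cells and of these other cells in the Ern2 values was not tested.

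Other genes of ER folding, translocation and degradation were counted from a list outside the members, also chosen with earlier results known. Of its 32 genes, 17 were higher in both MAdCAM1 libraries (53.1%) and 1 lower, where 19.7% and 18.7% of all tested genes were. Their median log2 fold change was 0.21, and it was 0.13 without MAdCAM1 2. With library size scaling it was 0.11, with 10 higher and 3 lower. By edgeR's quasi-likelihood test 0 were called, and 3 were higher and 0 lower at an unadjusted p under 0.05. The exact test also called 0 and DESeq2 called 1, which was Edem1. Edem1, which marks misfolded glycoproteins for degradation, stood at 104 and 122 CPM in MAdCAM1 libraries, against 66.9 and 58.0 CPM in IgG libraries (log2 fold change 0.86, SE 0.16; edgeR adjusted p = 0.665). Sec61b, a subunit of the channel into the ER, stood at 570 and 502 CPM against 365 and 400.1 CPM, with a log2 fold change of 0.49 (SE 0.16; edgeR adjusted p = 0.691). P4hb, the founding protein disulfide isomerase, stood at 432 and 469 CPM against 410.1 and 369 CPM, with a log2 fold change of 0.21 (SE 0.15). In all 3 genes both MAdCAM1 libraries were above both IgG libraries. Epithelial and goblet markers were also higher in both, as given above, and their part was not tested.

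Among 18 tested targets of Atf4, 5 were higher in both MAdCAM1 libraries (27.8%) and 3 lower (16.7%), near the 19.7% and 18.7% of all tested genes, and the median log2 fold change was −0.09. Nupr1, a stress-induced chromatin protein, was the most abundant and overlapped at 155 and 185 CPM in MAdCAM1 libraries and 265 and 58.9 CPM in IgG libraries. Asns, which makes asparagine, stood at 40.2 and 43.0 CPM in MAdCAM1 libraries and at 37.2 and 28.1 CPM in IgG libraries (log2 fold change 0.35, SE 0.20). Slc3a2, the heavy chain of amino acid exchangers, was lower in both MAdCAM1 libraries, at 65.2 and 59.7 CPM against 93.6 and 118 CPM, with a log2 fold change of −0.76 (SE 0.17; edgeR adjusted p = 0.665).

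Of 8 mitochondrial members 3 had higher values in both MAdCAM1 libraries (37.5%) and 1 lower (12.5%), where 19.7% and 18.7% of all tested genes were. Hspe1 and Hspd1, the 2 parts of the mitochondrial chaperonin, are transcribed in opposite directions from starts 108 bases apart. The 3 overlapping matches to the heat shock element shown above lie between those starts. Hspe1 stood at 279 and 246 CPM in MAdCAM1 libraries and at 204 and 326 CPM in IgG libraries, and Hspd1 at 164 and 125 CPM against 119.9 and 166 CPM. Both genes were highest in IgG 2 and lowest in IgG 1. Hspa9, the mitochondrial Hsp70, overlapped at 216 and 208 CPM against 201 and 215 CPM, with a log2 fold change of 0.03 (SE 0.14). Dnajc19 and Dnajc15, J-domain proteins of the import motor, were higher in both, as was Dnajc30, at 18.6 and 19.5 CPM in MAdCAM1 libraries and 16.3 and 14.8 CPM in IgG libraries. Dnajc19 stood at 168 and 169 CPM against 138 and 131 CPM, with a log2 fold change of 0.32 (SE 0.13; edgeR adjusted p = 0.740), and Dnajc15 at 119 and 118 CPM against 89.4 and 104 CPM (0.30, SE 0.15; edgeR adjusted p = 0.760). Dnajc11, of the inner membrane contact sites, was lower in both at 48.0 and 52.2 CPM against 61.3 and 56.3 CPM.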

How the data were processed

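CAGE tags of 4 tumour libraries were used. Per the labels' protocols, RNA with an integrity number above 7.0 was reverse transcribed with random primers, cap-trapped and read as single ends of 75 nt. Mapping by the authors used BWA 0.7.17, then HISAT2 2.0.5, on GRCm39, and RECLU for clustering, per the labels' protocols. The deposited values are raw tag counts per gene. The step between clusters and genes is not given in the sources used here.

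Genes were filtered with filterByExpr (14331 of 14979 kept) and scaled by TMM. MAdCAM1 was compared with IgG by edgeR's robust quasi-likelihood F test (edgeR 4.0.16, R 4.3.3), two-sided, with Benjamini-Hochberg adjustment over all tested genes and a threshold of 0.05. Alternatives were the exact test, DESeq2 1.42.0, limma-voom (limma 3.58.1), other scalings and filters, each library left out, a replicate block and identical genes counted 1 time. The tests were tested on simulated data. The p-values measure the spread between mice. Ddit3, listed under 2 identical rows, was counted 1 time. Coordinates and starts came from GENCODE M39. Not every gene of these families is reported here. The members and lists were chosen with earlier results of these data known. Named members were, per role, the 3 of highest mean CPM and the 3 of smallest p, plus 15 textbook genes such as Hsf1 and Hspa5. Of the lists of co-chaperones, ER folding and secretion genes and Atf4 targets, the 2 of highest mean CPM and the 2 of smallest p were named. Cell type markers are given as sums and counts, apart from plasma cell markers, which are also given by gene. Dnajb1, Dnajc5, Dnajc21, Dnajc27, Dnajc30 and Hspd1 were added after their values were seen.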

Additional observations from a re-analysis of the deposited data

How the results depend on the processing

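In every alternative run, exact test, DESeq2 and limma-voom included, 0 members were called. Over all genes that test called 0, the exact test 161 and DESeq2 239, and DESeq2 called Edem1 (adjusted p = 0.0202). The cytosolic median was −0.17 with upper quartile scaling, −0.25 with library size scaling and −0.23 to −0.10 when each library was left out. The ER median of 0.10 was 0.00 with library size scaling, just below 0, and 0.01 to 0.16 when each library was left out. Library size scaling, which moved the median of all genes by −0.10, turned Bag1 (−0.04), Bag3 (−0.04), Canx (−0.01), Dnajc10 (−0.08), Dnajc25 (−0.04), Hspa9 (−0.07), Hyou1 (−0.03), Nupr1 (−0.03) and Pdia6 (0.00, just below 0), and moved Hspd1 to −0.08. Upper quartile scaling gave 0.00 for Dnajc10 and −0.01 for Hspd1, and limma-voom gave 0.02 for Hspe1.

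The replicate numbers belong to different mice and pair nothing in the labels. Deviations of same-numbered libraries had r = −0.162 across genes, so a crossed pairing was chosen after seeing the data. The replicate block and the crossed replicate block each called 0 genes and 0 members, and gave 0.02 for Hspe1. At an unadjusted p under 0.05 the block had 580 genes higher and 116 lower, and the crossed block 884 and 494.

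Leaving out each library in turn turned the sign of the following log2 fold changes, given as their range: Atf4 0.00 to 0.35, Bag1 −0.10 to 0.22, Bag3 −0.19 to 0.35, Bag4 −0.46 to 0.01, Bag5 −0.35 to 0.07, Cct2 −0.27 to 0.06, Cct5 −0.46 to 0.05, Ddit3 −0.21 to 0.45, Dnajb1 −0.51 to 0.15, Dnajb11 −0.49 to 0.31, Dnajb9 −0.06 to 0.33, Dnajc10 −0.04 to 0.05, Dnajc14 −0.05 to 0.32, Dnajc22 −0.54 to 0.11, Dnajc25 −0.02 to 0.13, Dnajc27 −1.13 to 0.40, Dnajc4 −0.07 to 0.64, Fkbp4 −0.61 to 0.22, Herpud1 −0.15 to 0.76, Hsp90aa1 −0.58 to 0.14, Hsp90b1 −0.05 to 0.34, Hspa1a −1.87 to 0.52, Hspa1b −1.94 to 1.0, Hspa4 −0.32 to 0.06, Hspa9 −0.04 to 0.07, Hspd1 −0.22 to 0.26, Hspe1 −0.33 to 0.36, Hspg2 −0.62 to 0.80, Hyou1 0.00 to 0.13, Nupr1 −0.65 to 1.51, Pdia6 −0.10 to 0.27, Ptges3 −0.07 to 0.03 and Xbp1 −0.23 to 0.42.

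Counting error is largest for genes with few tags, such as Dnajc27 and Hspb6.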

Other observations

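Of the 9 members placed in no compartment, 2 were higher in both MAdCAM1 libraries (22.2%) and 0 lower in both, near the 19.7% of all tested genes that were higher. Hspb11, a subunit of the transport machinery of cilia, stood at 36.1 and 34.5 CPM in MAdCAM1 libraries and at 29.4 and 30.7 CPM in IgG libraries (log2 fold change 0.23, SE 0.15; edgeR adjusted p = 0.817). Hspg2, the matrix proteoglycan perlecan, overlapped at 33.8 and 90.4 CPM against 53.6 and 49.9 CPM. Its highest library, MAdCAM1 2, also had the highest summed endothelial and fibroblast markers, at 254 and 970 CPM in MAdCAM1 libraries and 235 and 719 CPM in IgG libraries, and their part was not tested. Dnajc28, the other member higher in both, was low at 1.26 and 1.10 CPM in MAdCAM1 libraries and 0.740 and 0.990 CPM in IgG libraries. The groups overlapped for Dnajc22 (50.8 and 32.4 CPM against 45.1 and 48.9 CPM), Dnajc25 (32.1 and 35.6 CPM against 33.6 and 31.4 CPM) and Dnajc4 (13.2 and 15.1 CPM against 14.9 and 8.97 CPM). Dnajc25 shares its counts with another gene model.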
